A study of Mus musculus with 66 samples.

Results

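The 31 genes described here build sterols and fatty acids or set how much of them a cell makes. They form a list chosen with earlier results of these data known: 7 enzymes of the mevalonate branch, 12 enzymes from squalene to cholesterol, 5 regulators, 1 sterol carrier and 6 enzymes of fatty acid synthesis and desaturation. All 31 were found among the 13957 genes of the deposited expression table, and all 31 were among the 8999 genes that reached 1 TPM (a level corrected for the length of the gene and the library total) in at least 1 group. Ebp reached that level only at 60 minutes without auxin, with 1.07 TPM.

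RNA was sequenced from mouse embryonic stem cells of a 129/Ola line derived from E14Tg2a, in which auxin removes the nuclear receptors Esrrb and Nr5a2, factors of the pluripotency network. Cells were asynchronous, arrested in mitosis, or released from the arrest for 20, 30, 40, 50 or 60 minutes, or for 90 or 120 minutes, each without auxin or with it, and each of these 18 groups had 3 libraries. Every group carried the degradable receptors, and the arm was read from the titles because the treatment entry is the same for all libraries. No group of wild-type cells with auxin is among the samples, so auxin itself, loss of Esrrb and loss of Nr5a2 cannot be told apart. Whether the derivative is 1 clone, and whether the 3 libraries of a group were separate cultures, is not given in the sources used here. Nr5a2 binding came from ChIP-seq of wild-type E14Tg2a cells, in interphase and in mitosis.

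The expression table holds 1 value per group, the authors' mean of the 3 libraries, so no value below has an SD and no difference has a test. The listed genes summed to 17155 TPM at the lowest (mitosis with auxin) and 49059 TPM at the highest (60 minutes without auxin), and depth per library is unknown. Summed levels of the 6 listed stem cell markers, Pou5f1 and Zfp42 among them, ran from 27.7 to 93.4 TPM over the groups. Of the other cell types, 3 listed fibroblast markers summed to 0.542 to 4.52 TPM, nearly all of it Vim, with Col1a1 and Thy1 under 1 TPM in every group, and 3 primitive endoderm markers summed to 0.0322 to 0.297 TPM. Auxin acts on the receptor proteins, so the RNA of Esrrb does not check the labels. In bulk RNA, fewer cells that express a gene and less RNA per cell cannot be told apart.

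Cells make cholesterol from acetyl-CoA through mevalonate, isoprenoid units, squalene and lanosterol, and make fatty acids from the same precursor. Most of these genes are targets of the sterol regulatory element-binding proteins SREBP-1 and SREBP-2, the products of Srebf1 and Srebf2. Scap escorts the SREBPs from the endoplasmic reticulum to the Golgi for cleavage when sterols are low, the Insig proteins hold Scap back when sterols are high, and Insig1 is itself an SREBP target. SREBPs bind promoters beside general partners such as NF-Y, which recognises CCAAT.

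The promoters below are those of the 3 members with the highest ratios of 60 minutes to mitosis (Idi1, Insig1 and Msmo1). Added to them are those of the member with an exact SREBP element (Hmgcs1) and of the member with the most CCAAT matches (Mvk). Hmgcs1 and Mvk were chosen for their matches, so these promoters do not stand for the members at large. Promoter sequences are from RefSeq on GRCm38.p6, for 25 of the 31 members, Fdps, Fdft1, Sqle, Stard4, Scd2 and Fads1 being without an entry. Each line holds the 250 bases before the start, 5' to 3' on the strand of the gene, with matches to CCAAT on either strand and to the SREBP element TCACNCCAC in capitals. Idi1 lies at chr13:8885356-8885605 (+), Insig1 at chr5:28071162-28071411 (+), Hmgcs1 at chr13:119690101-119690350 (+), Msmo1 at chr8:64733579-64733828 (-) and Mvk at chr5:114444019-114444268 (+).
Idi1: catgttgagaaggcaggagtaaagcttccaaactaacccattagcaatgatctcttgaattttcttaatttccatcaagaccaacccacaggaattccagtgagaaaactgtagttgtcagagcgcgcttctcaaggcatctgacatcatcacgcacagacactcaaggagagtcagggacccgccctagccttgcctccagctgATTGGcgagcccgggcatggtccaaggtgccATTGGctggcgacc
Insig1: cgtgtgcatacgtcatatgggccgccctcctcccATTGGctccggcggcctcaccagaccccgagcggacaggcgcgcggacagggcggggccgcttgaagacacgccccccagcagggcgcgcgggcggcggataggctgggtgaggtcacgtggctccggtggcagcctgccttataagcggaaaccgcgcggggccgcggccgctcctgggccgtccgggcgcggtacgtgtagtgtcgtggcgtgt
Hmgcs1: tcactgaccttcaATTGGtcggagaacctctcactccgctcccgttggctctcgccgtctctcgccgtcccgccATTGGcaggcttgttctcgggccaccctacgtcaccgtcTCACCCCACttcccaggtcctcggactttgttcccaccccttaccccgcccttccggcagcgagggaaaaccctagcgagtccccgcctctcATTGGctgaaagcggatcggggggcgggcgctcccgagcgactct
Msmo1: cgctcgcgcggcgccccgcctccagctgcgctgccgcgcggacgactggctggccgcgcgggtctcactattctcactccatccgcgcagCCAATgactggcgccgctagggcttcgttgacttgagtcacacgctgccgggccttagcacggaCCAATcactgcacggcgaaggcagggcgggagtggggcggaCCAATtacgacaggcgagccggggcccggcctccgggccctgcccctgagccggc
Mvk: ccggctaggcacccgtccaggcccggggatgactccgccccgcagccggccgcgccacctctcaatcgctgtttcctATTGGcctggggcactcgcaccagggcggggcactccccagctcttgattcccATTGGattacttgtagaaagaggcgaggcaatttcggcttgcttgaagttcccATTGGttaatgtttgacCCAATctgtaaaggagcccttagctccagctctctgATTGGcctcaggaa

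Counting the base before the start as position -1, the CCAAT matches of Idi1 begin at -45 and -14 and the only one of Insig1 begins at -216. Msmo1 has 3, at -160, -96 and -55, and Mvk has 5, at -173, -120, -67, -50 and -14. Hmgcs1 has 4, at -237, -176, -45 and, past the stretch printed, 11, as many as Nsdhl, whose log2 ratio of 60 minutes to mitosis was 0.29. Hmgcs1 also holds the only exact SREBP match among the members, at -137.

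Over the whole window of 300 bases, from 250 before to 50 after the start, CCAAT was found at 21 of the 25 members with an entry. The same letters were in 44.1% of 7266 genes of at least 1 TPM with an entry and in 37.4% of all 32851 promoters. A match began between -100 and -10 at 17 members, against 27.2% of those 7266 genes, and 12 members had 2 or more matches in 1 window, against 18.1%. Acat2, Scap, Fads2 and Acaca had none. Acaca, Dhcr7, Insig2, Pmvk and Srebf1 have entries that begin more than 1000 bases inside the span of the gene, and both matches of Dhcr7 are in such an entry. With only entries within 1000 bases of the outer end of the span, an alternative added after seeing the data, the 3 counts were 19, 15 and 11 of 23 members, against 41.9%, 26.2% and 17.5% of 6560 genes.

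TCACNCCAC matched exactly at 1 of 25 members, against 1.40% of the 7266 genes and 1.24% of all promoters. With 1 mismatch allowed, 11 members matched, against 29.1% of the 7266 genes. The nuclear receptor element TCAAGGTCA matched at 0 of 25 members and in 0.372% of the genes. Its shorter core AAGGTCA matched at 2, Dhcr7 at -51 and Hmgcs1 at -246, and in 3.66%. These are counts of letters and not of bound sites.

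In the values as deposited, most members stayed near their mitotic level up to 30 minutes after release and were highest at 50 or 60 minutes. The exceptions were Fads1, Insig2 and Acaca, which were highest later, and Idi1 and Insig1, which stood 0.80 and 0.65 above mitosis at 30 minutes. Ratios are differences of log2(TPM + 1), which understate the change of low genes. The median member stood 0.07 above mitosis at 20 minutes, 0.04 at 30, 0.43 at 40, 1.13 at 50, 1.53 at 60, 1.10 at 90 and 0.71 at 120 minutes without auxin. Over all 8999 genes the medians at 40, 50, 60, 90 and 120 minutes were 0.14, 0.67, 1.01, 0.95 and 0.81. The members' median was thus above that of all genes up to 90 minutes and below it at 120 minutes.

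All folds below are of TPM + 1, so a gene can double in TPM without counting as 2-fold. Msmo1 (2.39 to 5.26 TPM) and Fasn (2.88 to 6.49 TPM) were among those that did so from mitosis to 40 minutes without auxin. Acly (5.65 to 7.08 TPM) doubled on neither scale. By 40 minutes 2 of the 31 members, Idi1 and Insig1, were at least 2-fold above mitosis, as were 5.73% of all genes. At 50 minutes the count was 21 (30.6% of all genes), and at 60 minutes it was 26 (50.8%). At 120 minutes the count was 9 (33.1%). The 26 at 60 minutes depended on the scaling and became 4 of 31 with each stage centred on its median, 3 after quantile normalisation and 4 after rescaling to a common total (4.85%, 5.15% and 6.03% of all genes). The log2 ratio of 60 minutes to mitosis was positive for 30 of 31 members and for 95.4% of all genes. Once the table was rescaled to a common total, centred or quantile normalised, it was positive for 25 members. Pmvk, Tm7sf2, Nsdhl, Ebp and Acaca were negative under each of these scalings, with Lbr or Fads2 as the sixth. The share of all genes with a positive ratio under these scalings is not given here. Neither count is therefore read as a result about the members.

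**Figure D1:**
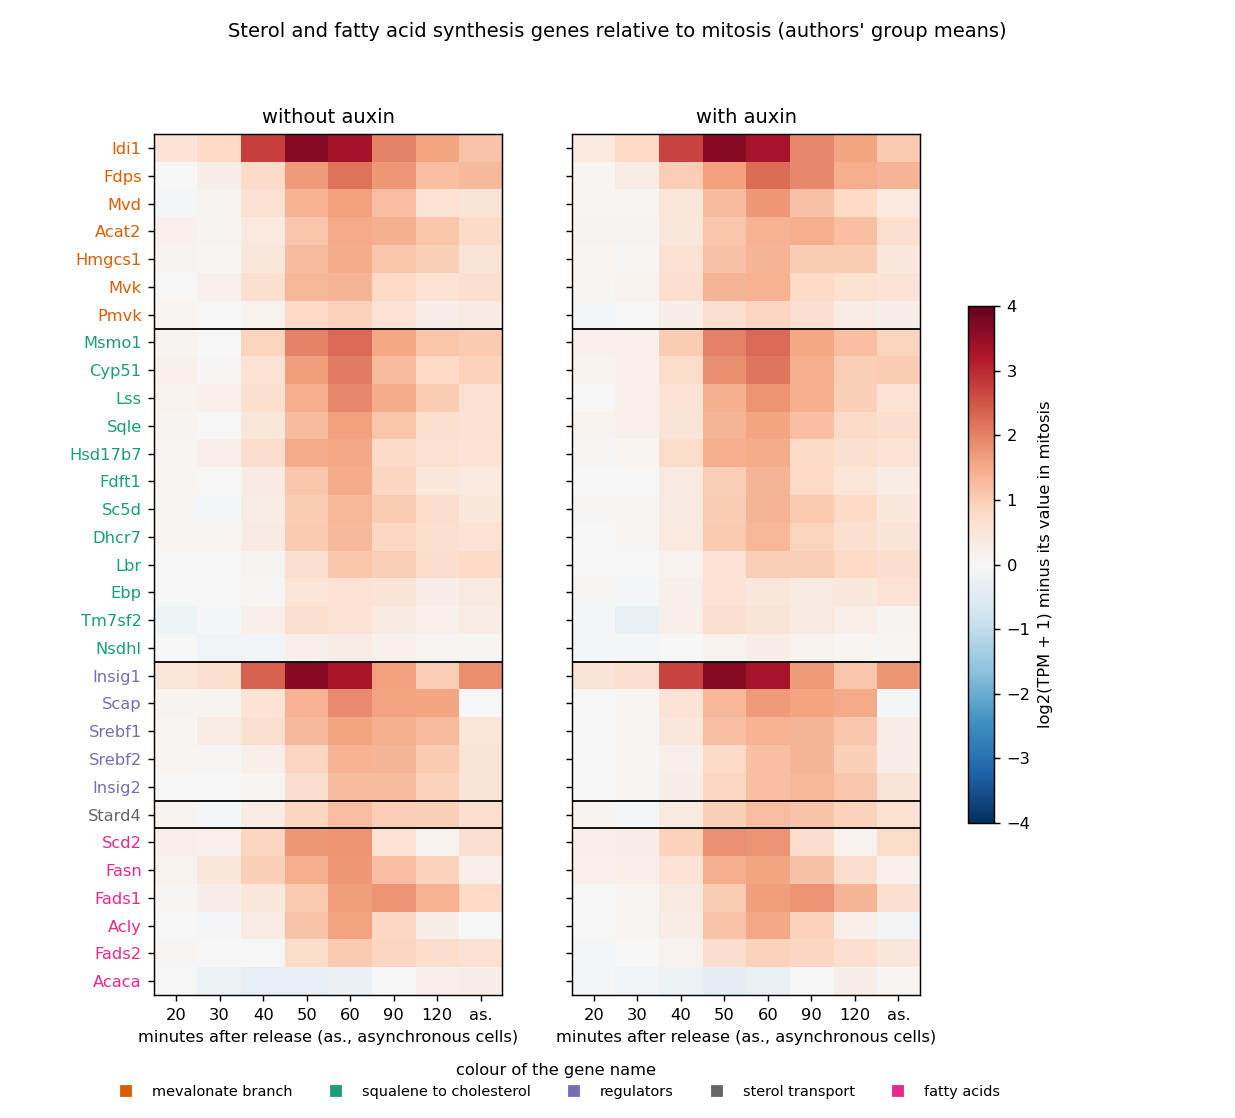
Difference of log2(TPM + 1) from mitosis for each of the 31 genes (rows, name coloured by role, ordered within a role by the 60 minute value) at 7 release times and in asynchronous cells, without auxin on the left and with auxin on the right. Red is higher and blue lower than mitosis; most rows are darkest at 50 to 60 minutes in both panels, Idi1 and Insig1 reach above 3, and Acaca is blue at 60 minutes.

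Most members were lower again by 120 minutes. Between 60 and 120 minutes without auxin 30 of 31 members went lower, with Acaca the exception, and 63.3% of all genes went lower. The direction was the same for every member after rescaling, centring and quantile normalisation, but the size was not. The log2 change differed from the deposited one by a factor above 1.5 for 17 members after rescaling. That held for 13 members when centred and 14 after quantile normalisation. In the values as deposited, 17 members were at least 1.5-fold lower at 120 than at 60 minutes, against 20.2% of all genes. At 90 minutes 8 were already that much lower, against 7.51%. These 1.5-fold counts are not given here under the scalings. The median member changed by -0.64 from 60 to 120 minutes and the median gene by -0.17.

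**Figure D2:**
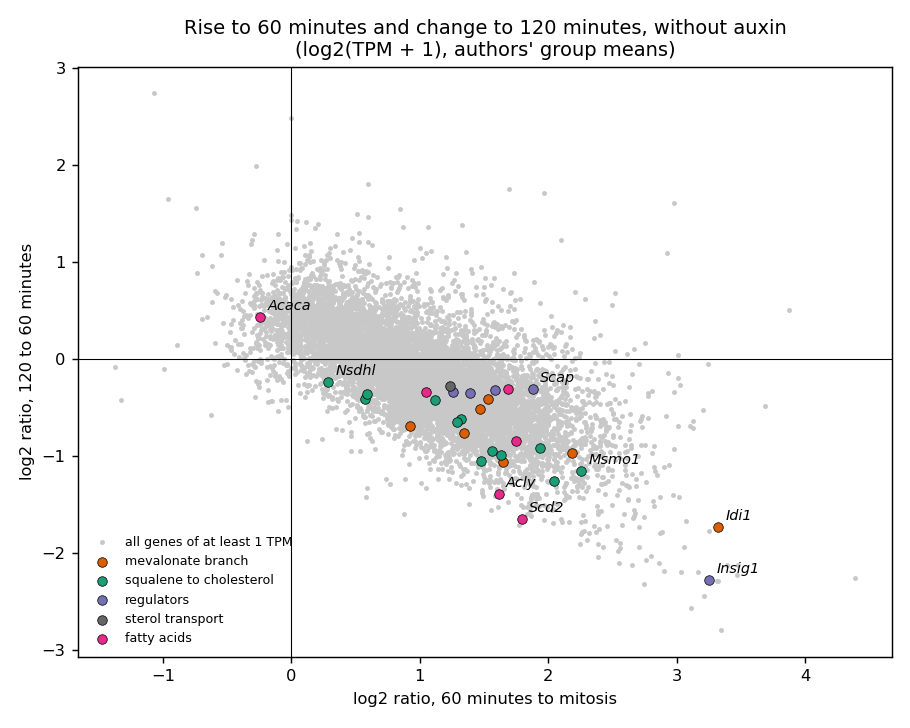
Each gene of at least 1 TPM (grey) and each of the 31 genes (coloured by role) by its log2 ratio of 60 minutes to mitosis (x axis) and of 120 to 60 minutes (y axis), without auxin. Idi1 (3.32, -1.73) and Insig1 (3.25, -2.27) lie at the lower right, Scd2 and Acly towards the lower edge of the cloud, and Acaca (-0.24, 0.44) at the upper left.

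In the mevalonate branch the median ratio of 60 minutes to mitosis was 1.53, and 6 of 7 enzymes were at least 2-fold higher (50.8% of all genes). At 120 minutes 5 of the 7 were at least 1.5-fold lower than at 60 minutes (20.2% of all genes). Idi1, which isomerises isopentenyl to dimethylallyl diphosphate, led the branch. Its level without auxin was 1.04 TPM in mitosis, 1.98, 2.56, 12.7, 24.7 and 19.4 TPM at 20, 30, 40, 50 and 60 minutes after release, 6.99 TPM at 90 and 5.16 TPM at 120 minutes, and 3.48 TPM in asynchronous cells. With auxin it was 1.20 TPM in mitosis, 1.89, 2.85, 13.4, 26.7, 20.7, 7.41 and 5.61 TPM at the same times, and 3.58 TPM in asynchronous cells. Both arms were highest at 50 minutes. Among the 8999 genes without auxin, its ratio of 40 minutes to mitosis, 2.75, ranked 4 from the highest, that of 60 minutes, 3.32, ranked 8, and its change from 60 to 120 minutes, -1.73, ranked 40 from the lowest.

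Fdps, which joins isoprenoid units into farnesyl diphosphate, had the next highest ratio of the branch, 2.19. Without auxin it stood at 0.505 TPM in mitosis, at 0.498, 0.824, 1.58, 3.90, 5.85, 4.02 and 2.50 TPM in order of the release times, and at 2.69 TPM in asynchronous cells. The corresponding levels with auxin were 0.388 TPM, then 0.473, 0.722, 1.73, 3.34, 5.51, 4.30 and 2.80 TPM, and 2.53 TPM. Its highest time was 60 minutes in both arms.

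The other mevalonate enzymes had smaller ratios of 60 minutes to mitosis without auxin. They were 1.65 for Mvd, which decarboxylates mevalonate diphosphate, 1.53 for Acat2, the cytosolic acetoacetyl-CoA thiolase, 1.47 for Hmgcs1, which makes HMG-CoA, 1.35 for the mevalonate kinase Mvk and 0.92 for the phosphomevalonate kinase Pmvk. In mitosis, at 60 and at 120 minutes, Mvd measured 0.462, 3.58 and 1.2 TPM and Acat2 1.09, 5.03 and 3.53 TPM. Acat2 was therefore slower to decline than Mvd, with changes from 60 to 120 minutes of -0.41 and -1.05.

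From squalene to cholesterol the median ratio at 60 minutes was 1.40, with 9 of 12 enzymes at least 2-fold higher (50.8% of all genes) and 8 at least 1.5-fold lower by 120 minutes (20.2%). Msmo1, which oxidises the C4 methyl groups of the sterol ring, was the highest of them. Its levels without auxin were 2.39 TPM in mitosis, 2.64, 2.38, 5.26, 12.3, 15.2, 8.84 and 6.29 TPM over the release times, and 5.94 TPM in asynchronous cells. With auxin they were 2.48 TPM, then 2.90, 2.95, 6.02, 13.2, 15.7, 9.12 and 7.07 TPM, and 5.41 TPM. Msmo1 was a little higher with auxin at each of the 7 release times and lower with auxin in asynchronous cells.

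Cyp51, the lanosterol demethylase, had a ratio of 2.04 at 60 minutes and a change of -1.26 from 60 to 120 minutes. Without auxin it measured 0.722 TPM in mitosis, 0.928, 0.777, 1.55, 4.45, 6.11, 3.14 and 1.98 TPM after release, and 2.27 TPM in asynchronous cells. With auxin the values were 0.666 TPM, then 0.832, 0.862, 1.80, 5.03, 6.38, 3.54 and 2.27 TPM, and 2.33 TPM. The 60 minute group was the highest in each arm.

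The steps around Cyp51 had similar ratios at 60 minutes: 1.94 for the lanosterol synthase Lss, 1.63 for the squalene epoxidase Sqle, 1.56 for Hsd17b7, a ketoreductase of C4 demethylation, and 1.48 for the squalene synthase Fdft1. The late enzymes Sc5d and Dhcr7, which act on the double bonds of the ring, had 1.32 and 1.29, and Lbr, a sterol reductase that also anchors chromatin at the nuclear envelope, had 1.12. Each of these 7 was highest at 60 minutes without auxin. Lbr was the most abundant of them in mitosis, at 3.01 TPM, and Hsd17b7 the least, at 0.226 TPM.

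Not every step of the pathway had so high a ratio. Nsdhl, the dehydrogenase of C4 demethylation, stood at 1.25 TPM in mitosis without auxin, at 1.21, 1.09, 1.08, 1.61, 1.74, 1.54 and 1.32 TPM after release, and at 1.31 TPM in asynchronous cells. With auxin it stood at 1.26 TPM, then 1.18, 1.19, 1.28, 1.51, 1.71, 1.51 and 1.37 TPM, and 1.33 TPM. Its ratio at 60 minutes, 0.29, was 0.73 below the median of all genes.

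Tm7sf2, a sterol reductase whose reaction Lbr also catalyses, had a ratio of 0.58. Without auxin it held 1.45 TPM in mitosis, 1.17, 1.38, 1.84, 2.83, 2.66, 2.17 and 1.75 TPM after release, and 1.99 TPM in asynchronous cells. The levels with auxin were 1.62 TPM, then 1.52, 1.18, 2.03, 3.07, 2.75, 2.34 and 1.99 TPM, and 1.82 TPM. Ebp, the sterol isomerase, had a ratio of 0.59 and stayed between 0.276 and 1.07 TPM in all groups.

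The regulators were all at least 2-fold higher at 60 minutes than in mitosis, with a median ratio of 1.58, and 1 of 5, Insig1, was at least 1.5-fold lower at 120 minutes. The shares of all genes were 50.8% and 20.2%, so the count of lower regulators was that of the table at large. Insig1 without auxin was at 1.64 TPM in mitosis, 2.66, 3.15, 12.4, 31.7, 24.2, 7.29 and 4.20 TPM after release, and 8.61 TPM in asynchronous cells. With auxin it was at 1.63 TPM, then 2.74, 3.20, 16.2, 32.6, 24.8, 7.52 and 4.71 TPM, and 7.95 TPM. Its change from 60 to 120 minutes, -2.27, ranked 7 from the lowest of 8999 genes, and its ratio at 40 minutes, 2.35, ranked 17 from the highest.

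Insig1 and its relative Insig2 differed in level and in timing. Insig2 without auxin stood at 0.379 TPM in mitosis, 0.352, 0.366, 0.471, 1.23, 2.30, 2.35 and 1.61 TPM after release, and 0.971 TPM in asynchronous cells. With auxin it stood at 0.344 TPM, then 0.359, 0.424, 0.585, 1.37, 2.12, 2.41 and 1.84 TPM, and 0.922 TPM. The highest time was 50 minutes for Insig1 and 90 minutes for Insig2, in both arms.

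Srebf1 was the more abundant SREBP gene in each group. Its levels without auxin were 2.78 TPM in mitosis, 2.92, 3.62, 4.83, 8.35, 10.3, 9.12 and 8.08 TPM after release, and 4.25 TPM in asynchronous cells. With auxin they were 3.09 TPM, then 3.18, 3.24, 4.45, 8.33, 9.65, 9.52 and 7.63 TPM, and 3.93 TPM. Against Idi1 and Insig1 this was a broad profile, with 60 and 90 minutes close together.

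Srebf2 without auxin was at 2.24 TPM in mitosis, 2.41, 2.32, 2.70, 4.88, 7.49, 7.25 and 5.67 TPM after release, and 3.59 TPM in asynchronous cells. With auxin the levels were 2.36 TPM, then 2.35, 2.45, 2.84, 4.68, 6.76, 7.54 and 5.55 TPM, and 3.03 TPM. The highest time was 60 minutes without auxin and 90 minutes with it. In each arm the 60 and 90 minute levels of Srebf2 were within 1 TPM of each other.

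Scap was higher at 60 minutes, like the enzymes, and still high at 120 minutes. Without auxin it was at 0.696 TPM in mitosis, 0.813, 0.85, 1.5, 3.48, 5.24, 4.13 and 4.05 TPM after release, and 0.702 TPM in asynchronous cells. With auxin it was at 0.789 TPM, then 0.819, 0.904, 1.62, 3.51, 4.79, 4.31 and 4.06 TPM, and 0.719 TPM. Its level in asynchronous cells was close to that in mitosis, and the ratio of asynchronous cells to 120 minutes, -1.57, ranked 152 from the lowest.

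**Figure D3:**
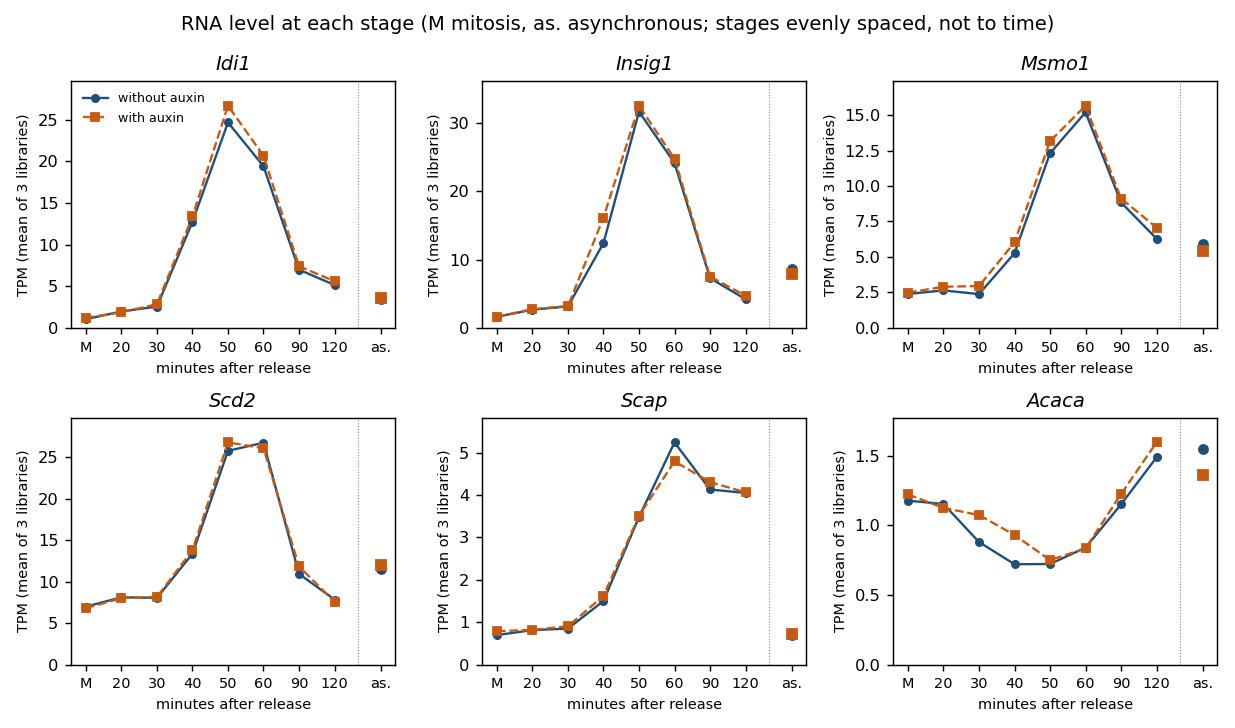
Levels of 6 of the genes in TPM (y axis, from 0) at mitosis (M), 7 release times and in asynchronous cells (as.), which are evenly spaced and not to time. Circles with solid lines are without auxin and squares with dashed lines with auxin, each the mean of 3 libraries with no error available; Idi1 and Insig1 peak at 50 minutes, Scap stays near 4 TPM to 120 minutes, and Acaca is lowest at 40 to 60 minutes.

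Of the fatty acid genes 5 of 6 were at least 2-fold higher at 60 minutes, with a median ratio of 1.65 over the 6, and 3 were at least 1.5-fold lower at 120 minutes, against 50.8% and 20.2% of all genes. Scd2, a desaturase that makes monounsaturated fatty acids, was the most abundant member in mitosis. Without auxin it was at 6.99 TPM in mitosis, 8.11, 8.04, 13.4, 25.8, 26.7, 10.9 and 7.84 TPM after release, and 11.5 TPM in asynchronous cells. With auxin it was at 6.80 TPM, then 8.01, 8.15, 13.8, 26.8, 26.1, 11.8 and 7.57 TPM, and 12.0 TPM. By 120 minutes Scd2 was back near its mitotic level, a change of -1.65 from 60 minutes that ranked 54 from the lowest.

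Acly, which makes cytosolic acetyl-CoA from citrate, measured 5.65, 19.4 and 6.78 TPM in mitosis, at 60 and at 120 minutes, and at that last time it was again close to its 5.76 TPM in asynchronous cells. Fasn, the fatty acid synthase, was at 2.88 TPM in mitosis without auxin, 3.27, 4.14, 6.49, 9.60, 12.0, 8.04 and 6.27 TPM after release, and 3.51 TPM in asynchronous cells. With auxin it was at 3.0 TPM, then 3.53, 3.57, 4.85, 9.99, 11.1, 8.01 and 5.50 TPM, and 3.50 TPM. Fasn was above mitosis at each release time in both arms.

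The desaturases Fads1 and Fads2, which serve polyunsaturated fatty acids and are neighbours on chromosome 19, had ratios of 1.69 and 1.05 at 60 minutes. Fads1 was highest at 90 minutes, at 4.80 TPM, and Fads2 at 60 minutes, at 2.31 TPM. Stard4, a soluble sterol carrier, measured 0.716, 3.04 and 2.33 TPM in mitosis, at 60 and at 120 minutes.

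Acaca, the acetyl-CoA carboxylase of the committed step, was the exception among the 31. Without auxin it stood at 1.18 TPM in mitosis, 1.15, 0.880, 0.721, 0.722, 0.840, 1.15 and 1.49 TPM after release, and 1.55 TPM in asynchronous cells. With auxin it stood at 1.22 TPM, then 1.13, 1.08, 0.931, 0.751, 0.834, 1.23 and 1.60 TPM, and 1.36 TPM. Its ratio was -0.24 at 60 minutes, and it was 0.44 higher at 120 than at 60 minutes, in the opposite direction to the other 30.

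Acaca was also the longest member. Its span in RefSeq is 272017 bases (GRCm38.p6, chr11:84129635-84401651), while the members' median span was 17910 bases and the shortest, of Tm7sf2, was 5030. Idi1 (chr13:8885606-8892396) and Insig1 (chr5:28071412-28078662) span 6791 and 7251 bases. Across the 31 members, Spearman's rho between span and the ratio of 40 minutes to mitosis was -0.43, and across 8941 genes with a span it was -0.60. For the change from 60 to 120 minutes rho was 0.39 across members and 0.27 across the genes. Genes of 1 table share the same libraries, so these correlations are descriptions, and whether span has a part in the profile of Acaca was not tested.

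**Figure D4:**
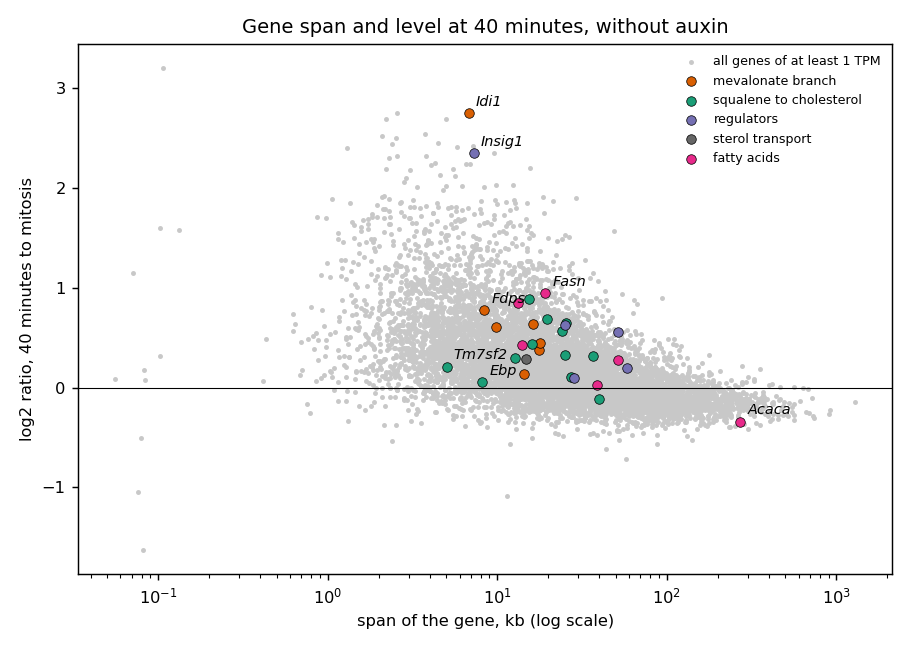
Log2 ratio of 40 minutes to mitosis without auxin (y axis) against the span of the gene in kb (x axis, log scale), for genes of at least 1 TPM (grey) and the 31 genes (coloured by role). Idi1 and Insig1 stand above the other members at short spans, Tm7sf2 and Ebp are short with ratios near 0, and Acaca lies at the long end below 0.

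Timing was read from the values as deposited over mitosis and the 7 release times, with asynchronous cells left out. On that reading 25 of 31 members had their highest level at 60 minutes without auxin, against 45.6% of all genes. Idi1, Insig1 and Tm7sf2 were highest at 50 minutes (6.71% of all genes), Fads1 and Insig2 at 90 minutes (23.6%) and Acaca at 120 minutes (22.7%). The largest step upward was from 40 to 50 minutes for 26 members (57.7% of all genes). It was from 30 to 40 minutes for Idi1, Insig1 and Fasn (7.73%), from 50 to 60 for Fads1 and from 60 to 90 for Acaca. The sum over all listed genes without auxin was also highest at 60 minutes, 49059 TPM against 38477.5 TPM at 50 minutes. Timing therefore turns on the scaling too, and the highest stage was not counted under other scalings.

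In asynchronous cells the listed genes summed to 24769 TPM without auxin, against 40735 TPM at 120 minutes, so the comparison of these stages turns on the scaling. The median difference of asynchronous cells from 120 minutes without auxin was -0.07 for members and -0.49 for all genes in the values as deposited. With each stage centred on its median it was 0.45 for members and 0.02 for all genes, so that the members stood above 120 minutes. At least 1.5-fold lower in asynchronous cells than at 120 minutes were 3 members, Scap, Srebf1 and Fasn, against 40.4% of all genes. Insig1 was the 1 member at least 1.5-fold higher, against 0.911%. When centred, 1 member was lower (7.75% of all genes) and 8 were higher (7.58%). Relative to mitosis, 15 members were at least 1.5-fold higher in asynchronous cells, against 17.6%.

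The question put to auxin was whether the return of these genes differs once both receptors are degraded. The difference with minus without auxin, averaged over the 7 release times, reached 1.5-fold for 0 of 31 members and for 0.0667% of all genes. At each single stage, mitosis and asynchronous cells included, the count of members past 1.5-fold was also 0. The share of all genes past 1.5-fold at single stages was not counted, so this shows nothing particular to the members. The authors' deposited table calls none of the 31 responsive to auxin: 0 are called lower, against 7.26% of its genes, and 0 higher, against 6.74%. Without replicate values these counts do not show that the arms are alike.

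The 4 largest mean differences were 0.12 for Msmo1, -0.10 for Fasn, 0.09 for Insig1 and 0.09 for Cyp51. The largest at a single stage was at 40 minutes for Fasn, which stood at 4.85 TPM with auxin and 6.49 TPM without, a difference of -0.36. Insig1 differed by 0.35 at the same time in the opposite direction, with 16.2 TPM against 12.4 TPM. Outside 40 minutes the 6 other release times of Insig1 differed by at most 0.13.

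Msmo1, Dhcr7 and Insig1 were higher with auxin at all 7 release times, 3 of 31 members against 3.88% of all genes. None of the members was lower at all 7, against 5.33%. The mean difference was above 0 for 21 members and below 0 for 10, and 60.8% of all genes were above 0. The median was 0.02 for the members and 0.02 for all genes.

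The number of members higher with auxin varied with the stage, and so did the share of all genes. At 60 minutes 10 members were higher with auxin and 19.5% of all genes, and in asynchronous cells 8 members and 28.9%. At 40 minutes the counts were 26 members and 71.7%, and at 90 minutes 26 members and 63.5%. In the arm with auxin the 60 minute level was 2-fold or more above mitosis for 24 members (46.8% of all genes) and 15 were at least 1.5-fold lower at 120 than at 60 minutes (15.9%). The highest stage, asynchronous cells left out, was the same in both arms for 26 members, and for 78.8% of all genes.

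**Figure D5:**
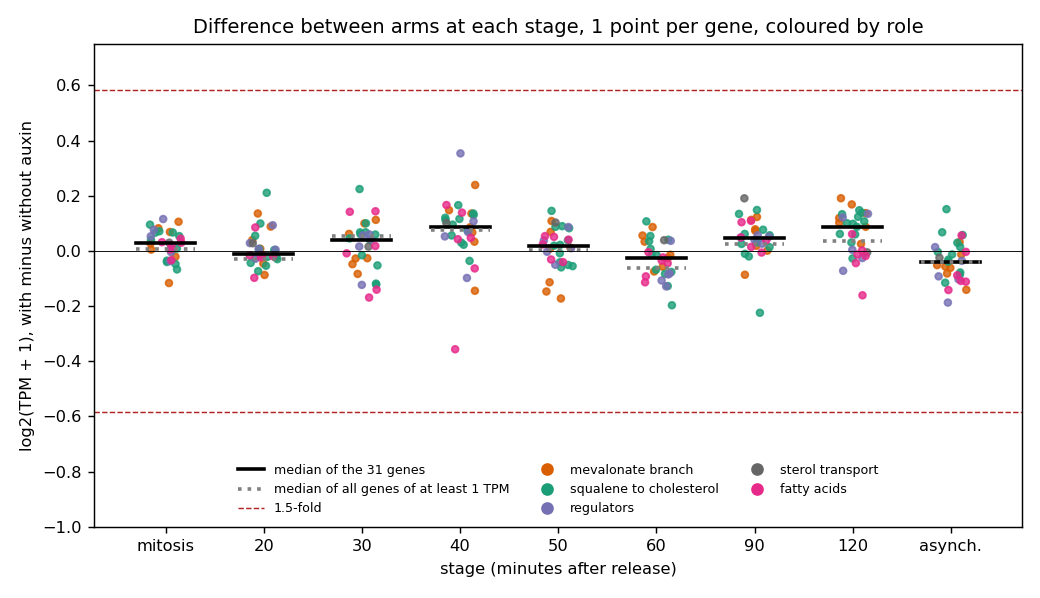
Difference of log2(TPM + 1) with minus without auxin for each of the 31 genes (points, coloured by role, spread sideways at random) at each stage, with the median of the 31 (black bar), the median of all genes of at least 1 TPM (dotted bar) and 1.5-fold in either direction (dashed lines). No point crosses the dashed lines, and the lowest and highest points, Fasn and Insig1, are both at 40 minutes.

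Nr5a2 peaks lay within the gene or 10 kb of either side for 21 of 31 members, against 72.0% of 8941 genes. The 21 had 45 of the 35266 peaks, with 7 at Srebf2 and 5 at Pmvk. Fdps, Fdft1, Lss, Cyp51, Lbr, Nsdhl, Insig1, Insig2, Stard4 and Fads2 had none. The authors give each peak 1 of 4 codes with no stated meaning in the labels or the list: 27 of the 45 were L, 10 eB, 6 dB and 2 nB, or 60.0%, 22.2%, 13.3% and 4.44%, against 65.1%, 18.1%, 10.3% and 6.46% of all peaks.

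A peak overlapped the promoter window at 5 of 25 members with an entry, and at 14.4% of 7266 genes. These were Idi1 (chr13:8885398-8885745, eB), Dhcr7 (chr7:143822897-143823729, eB), Mvd (chr8:122443657-122444010, eB), Acat2 (chr17:12960831-12961161, L) and Ebp (chrX:8193204-8193567, L). The Idi1 peak covers most of the stretch printed above, including both CCAAT matches. Idi1 and Insig1, alike in profile, thus differed in this respect, since Insig1 had no peak within 10 kb. Peaks carry no level per library in the deposited list, so binding in mitosis and interphase was not compared here.

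Other genes of these pathways were lists of their own and were not part of the 31, and their counts are read against the same shares of all genes, 50.8% at least 2-fold higher at 60 minutes and 20.2% at least 1.5-fold lower at 120 minutes. Of 10 further sterol and isoprenoid synthesis genes 9 reached 1 TPM, of which 6 were at least 2-fold higher and 3 lower again. Of 17 genes of sterol uptake, transport and efflux 12 reached 1 TPM, 9 were 2-fold higher and 4 lower again. The lysosomal sterol carrier Npc2 measured 1.46, 9.60 and 3.56 TPM in mitosis, at 60 and at 120 minutes without auxin, and the ubiquitin ligase Mylip 0.329, 3.74 and 0.566 TPM.

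All 12 genes of SREBP processing and partners reached 1 TPM, of which 8 were 2-fold higher at 60 minutes (50.8% of all genes) and 2 lower again at 120 minutes (20.2%). The NF-Y subunit Nfya held 1.28, 6.12 and 2.88 TPM in mitosis, at 60 and at 120 minutes, and Nfyb 1.46, 7.14 and 7.09 TPM. Of 27 other fatty acid genes 16 reached 1 TPM, 9 were 2-fold higher at 60 minutes and 4 lower at 120 minutes, near those shares. Scd1 was among the 4 but not among the 9, with a ratio of 60 minutes to mitosis of 0.70. The citrate carrier Slc25a1 held 0.48, 4.89 and 2.77 TPM. No gene of these 4 lists was 2-fold lower at 60 minutes or 1.5-fold higher at 120 than at 60 minutes. In the authors' deposited table Pdss1, Abca1, Acacb and Elovl6 of these lists are called lower with auxin, and Mylip, Fbxw7, Elovl2 and Acsl3 are among those called higher.

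The median profile of the members over the 9 stages without auxin was shared by many other genes. The closest non-members were Zmym6, with a Pearson r of 0.997, and Lrrc42, Plekhg2, Sdhc and Pex19, each with 0.996 over 9 stages. Of 8968 non-members, 60 had an r of at least 0.99 and 1467 of at least 0.95. Of the 31 members 14 had an r of at least 0.95, led by Dhcr7 with 0.995, while Idi1 had 0.85, Insig1 0.84, Scd2 0.83 and Acaca -0.22. The profile was made from these same 31 members, so their r is raised by construction and cannot be set against that of non-members. The stages share their libraries across genes, so r is a description of likeness only.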

How the data were processed

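The authors deposited expression as TPM, 1 column for each of 18 groups, per the file headers. Multiplying by 3 turned all 246530 non-zero values into numbers that end at 9 decimals (within 2 units of the last decimal before multiplying), as means of 3 libraries do. STAR, RSEM, DESeq2, Bowtie2, MACS2 and mm10 are named, per the submitters' processing notes, without versions. RNA libraries were ribosome-depleted and stranded, per the labels' protocols. The part of a gene that was quantified, the test behind the authors' calls and the peak codes are not stated in the labels or headers.

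Differences were taken on log2(TPM + 1), with a pseudocount of 1, over the 8999 genes of at least 1 TPM in at least 1 group. Folds of 2 against mitosis and of 1.5 elsewhere were counted beside the same count over all genes. The planned limma fit needs 1 column per library and was not run. Counting was checked on simulated data. Gene spans and promoters are from RefSeq on GRCm38.p6, which shares its primary chromosomes with mm10; spans were found for 13866 of 13957 symbols. Python 3.11.15, pandas 2.3.3, numpy 2.4.6 and matplotlib 3.10.9 were used.

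The related gene lists, like the members, were chosen with earlier results of these data known. All members are named. Values at every stage are given for the 4 highest and 3 lowest by ratio of 60 minutes to mitosis, the 3 with the largest decline to 120 minutes, any higher at 120 than at 60 minutes, the 4 with the largest mean difference between arms, and the 5 regulators. Outside the list, the 5 genes of most similar profile are named by the same rule, and genes of the related lists were chosen after their values were seen. Alternatives were another pseudocount, no filter, 3 scalings, other windows for peaks and promoters and, added after seeing the data, 50 minutes in place of 60, 1 mismatch in the SREBP element, promoter entries near the outer end of the gene only, and the scalings for asynchronous cells. Values of a few genes of the related lists are not reported here.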

Additional observations from a re-analysis of the deposited data

How the results depend on the processing

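No paired analysis was possible because the deposited columns are group means without replicate numbers, and for the same reason no replicate could be left out and the depth behind a value is unknown. The rise to 60 minutes depends on the scaling, as the median of all genes was itself 1.01 above mitosis on the log2 scale. The count of members at least 2-fold above mitosis, 26 without auxin, was 4 with each stage centred on its median, 3 after quantile normalisation and 4 after rescaling to a common total (4.85%, 5.15% and 6.03% of all genes). The 24 with auxin became 5, 5 and 5, for which the shares of all genes are not given here. The median ratio of 1.53 became 0.43, 0.43 and 0.47 (all genes -0.09, 0.02 and 0.06). Fads2 turned to -0.058 when centred, and Lbr to -0.20 after quantile normalisation and -0.13 after rescaling. The median change from 60 to 120 minutes, -0.64, became -0.43 after quantile normalisation and -0.40 after rescaling. For asynchronous cells against 120 minutes, alternatives added after seeing the data, the median of -0.07 became -0.14 with a pseudocount of 0.1, 0.45 centred, 0.33 after quantile normalisation and 0.39 after rescaling. The 3 members lower there became 7 with that pseudocount (59.8% of all genes) and 1 under each scaling, and the 1 higher became 8 centred, 8 after quantile normalisation and 4 after rescaling. Shares of all genes are given above for the centred counts only. The counts after quantile normalisation and rescaling are therefore not read as results about the members. From 50 in place of 60 minutes, the 17 members lower at 120 minutes became 11 (10.2% of all genes), and 1 mismatch took the SREBP matches from 1 to 11 (29.1%). The count of members 1.5-fold different between arms was 0 under every alternative run.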
